A study of Rattus norvegicus with 4 samples.

Results

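9 genes of neurotrophin and growth factor signalling were followed on 4 arrays of rat hippocampal RNA: the secreted factors Bdnf, Vgf, Nptx2, Gdnf, Fgf2, Igf1, Hbegf and Vegfa, and Ntrk2, the receptor of brain-derived neurotrophic factor. They were chosen by name, with earlier results of these arrays known. A probe set was taken as theirs when the platform annotation gave it that single gene symbol. By this rule 8 of the 9 genes had a probe set, of 14217 genes so named on the array, and they had 16 probe sets in all. Nptx2 was matched to no probe set and was not analysed here. Each gene is represented by its brightest probe set over the 4 arrays, and the other 8 probe sets are given for agreement.

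The RNA came from the CA3 area of the hippocampus of Sprague-Dawley rats, dissected 24 h after injection into the hippocampus. PBS was the vehicle group, KA received the glutamate receptor agonist kainic acid, KA+NAP received kainic acid with the neuroprotective peptide NAP, and NAP received the peptide alone. Each group had 1 array, and the labels do not state the age, the sex or how many animals an array stands for. No value below therefore has a replicate error, no test between groups was made, and 2-fold serves as a fixed rule of size. Values are MAS5 intensities. Differences are in log2(intensity + 10), which understates those of dim probe sets, and they are set beside the 9489 genes whose mean intensity exceeded 62.75, the median of all probe sets.

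Neurotrophins are secreted proteins that bind receptor tyrosine kinases and maintain neurons and synapses. In the hippocampus, seizure activity is a textbook inducer of Bdnf, which signals through the TrkB receptor encoded by Ntrk2, and of the secretory granule protein gene Vgf. Hbegf encodes a heparin-binding ligand of the EGF receptor, Fgf2 a heparin-binding fibroblast growth factor made by astrocytes, Vegfa the main endothelial growth factor, Igf1 an insulin-like growth factor made in the injured brain by microglia, and Gdnf a survival factor for several neuron types.

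Promoter windows are shown for the 4 genes that stood at least 2-fold higher on the KA array than on the PBS array, so that their upstream sequences can be set beside those values. RefSeq (build GRCr8) gave windows for 8 of the 9 genes, Ntrk2 being the exception. Each sequence below is the 250 bases before an annotated start, written 5′ to 3′ on the gene's strand. Capitals mark TGACG or its reverse complement CGTCA, the core of the cyclic AMP response element (CRE), and overlapping copies that together spell the full element TGACGTCA. The Vgf window is chr12:25277021-25277270 on the minus strand, Hbegf chr18:28390221-28390470 on the minus strand, Fgf2 chr2:122164204-122164453 on the plus strand, and Bdnf chr3:116637608-116637857 on the plus strand, the fourth of 6 Bdnf start sites in the table. The Bdnf window shown is the one that holds the core. The other Bdnf windows lack it and are not shown.
Vgf: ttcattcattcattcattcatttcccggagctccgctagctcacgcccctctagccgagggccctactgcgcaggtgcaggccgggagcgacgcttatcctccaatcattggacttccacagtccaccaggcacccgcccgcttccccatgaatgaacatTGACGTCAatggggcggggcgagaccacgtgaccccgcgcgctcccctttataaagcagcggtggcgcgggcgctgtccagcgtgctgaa
Hbegf: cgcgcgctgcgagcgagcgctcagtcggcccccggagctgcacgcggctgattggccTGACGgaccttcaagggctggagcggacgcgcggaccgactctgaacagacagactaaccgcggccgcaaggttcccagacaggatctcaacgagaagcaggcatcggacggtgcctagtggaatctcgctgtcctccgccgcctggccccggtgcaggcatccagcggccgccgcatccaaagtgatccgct
Fgf2: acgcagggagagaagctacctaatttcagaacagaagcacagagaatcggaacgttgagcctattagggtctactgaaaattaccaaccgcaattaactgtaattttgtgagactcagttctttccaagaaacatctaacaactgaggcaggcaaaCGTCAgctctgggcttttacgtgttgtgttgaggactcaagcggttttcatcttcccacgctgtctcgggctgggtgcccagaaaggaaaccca
Bdnf, start 4: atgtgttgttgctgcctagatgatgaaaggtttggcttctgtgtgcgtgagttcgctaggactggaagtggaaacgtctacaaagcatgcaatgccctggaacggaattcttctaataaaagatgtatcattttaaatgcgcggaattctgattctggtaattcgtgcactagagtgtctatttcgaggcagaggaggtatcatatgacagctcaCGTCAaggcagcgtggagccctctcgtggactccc

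The full element TGACGTCA was present in the Vgf window, beginning 90 bases before the start, and in 1.59% of all 33469 windows of that length, both strands counted. The core TGACG was present in 18.2% of all windows. It occurred in 6 of the 14 windows of the growth factor genes, namely those of Vgf, Hbegf (193 bases before the start), Fgf2 (94 bases), Nptx2 (90 bases) and Gdnf (49 bases) and the fourth Bdnf window (35 bases). The AP-1 motif TGANTCA was found in the third Bdnf window only, against 6.34% of all windows. These matches describe the letters of the windows, and the arrays do not report from which Bdnf start a transcript came.

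On the KA array, 4 of the 8 measured genes stood at least 2-fold above the PBS array (Hbegf, Vgf, Fgf2 and Bdnf), and none stood at least 2-fold below. Among all genes past the filter, 4.91% reached 2-fold upwards and 2.39% downwards in that comparison. The 8 genes were chosen with earlier results of these arrays known, and Hbegf and Fgf2 passed the filter through the arrays with KA. The count is thus no test of the genes as a set. In KA+NAP minus NAP, which uses the other pair of arrays, 2 of the 8 were at least 2-fold higher (Hbegf and Vgf) and none lower, against 5.66% and 2.41% of all genes. Both KA arrays lay above both arrays without KA for Vgf, Fgf2 and Hbegf, an order found for 32.3% of all genes. Both lay below for Ntrk2, an order found for 28.7% of all genes. For Bdnf, Igf1 and Vegfa the arrays with and without KA overlapped. Gdnf, at 7 or less on every array, is not placed in an order.

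**Figure D1:**
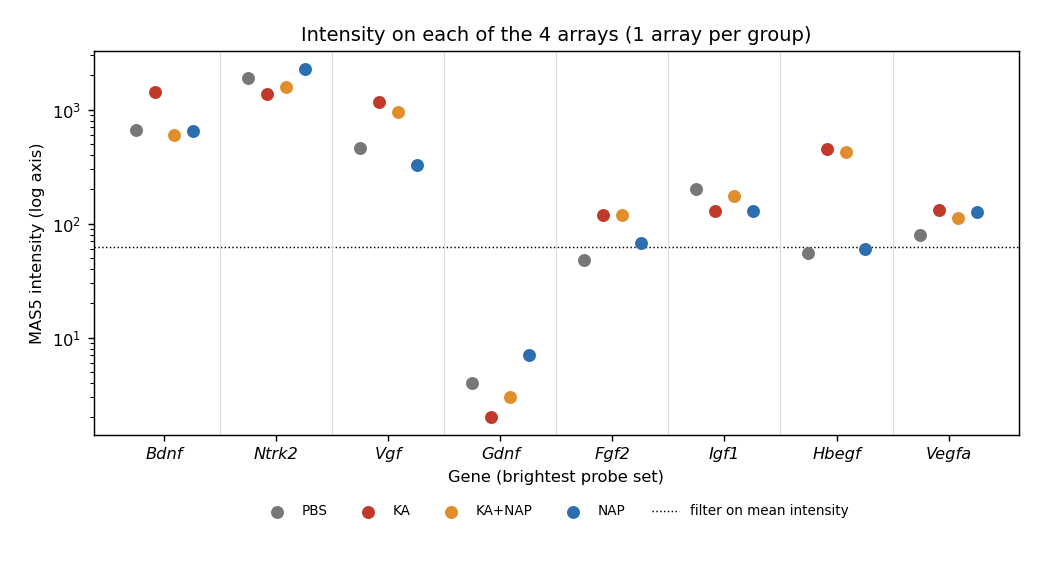
MAS5 intensity (log axis) of the brightest probe set of each measured gene on the PBS, KA, KA+NAP and NAP arrays; each point is 1 array, and the dotted line is the filter on mean intensity at 62.75. Hbegf, Vgf and Fgf2 have both KA arrays on top, Bdnf has only the KA array on top at 1412, and Gdnf lies at 7 or below; points are to be compared within a gene, since probe sets differ in brightness.

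Of the 8 genes, Hbegf differed most between arrays with and without KA. Its intensity was 55 with PBS, 455 with KA, 427 with KA+NAP and 60 with NAP. The 2 arrays with KA were close to each other, as were the 2 without, and there was no overlap. The log2 difference was 2.84 in KA minus PBS (7.15-fold) and 2.64 in KA+NAP minus NAP (6.24-fold). Hbegf passed the filter through the arrays with KA, since its intensities without KA were below 62.75. KA+NAP minus KA was -0.09 and NAP minus PBS 0.11. Hbegf has 1 probe set, so no second measure of it was at hand.

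Transcripts of the proteins that Hbegf acts with were measured as well. Membrane-bound Hbegf is released by metalloproteinases and binds the receptors encoded by Egfr and Erbb4. Of the other EGF family ligands, 8 were measured and 1 passed the filter, Tgfa at -0.22 in KA minus PBS and 0.36 in KA+NAP minus NAP. The receptor gene Egfr was at 157 with PBS, 342 with KA, 226 with KA+NAP and 231 with NAP. Its KA array was the highest, with a log2 difference of 1.08 in KA minus PBS and -0.03 in KA+NAP minus NAP, and neither of its other 2 probe sets passed the filter. Erbb4 was at 13 or below on every array. Sdc1 encodes syndecan 1, a heparan sulphate proteoglycan that binds heparin-binding growth factors. The Sdc1 intensity went from 29 with PBS to 621 with KA and from 65 with NAP to 355 with KA+NAP. Its log2 differences were 4.02 and 2.28, and its second probe set gave 3.64 and 2.37. Both Sdc1 probe sets passed the filter through the arrays with KA.

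Vgf, the precursor of several secreted neuropeptides, followed the same order of arrays with and without KA. Its intensity was 460 with PBS, 1161 with KA, 956 with KA+NAP and 326 with NAP. The 2 arrays with KA lay above the 2 without. The log2 difference was 1.32 in KA minus PBS (2.49-fold) and 1.52 in KA+NAP minus NAP (2.88-fold). With NAP alone the intensity was lower than with PBS by 0.48 on the log2 scale (-0.48), and 313 of the 9489 genes had a lower difference there. KA+NAP minus KA was -0.28. None of the other 6 granin family genes measured, all past the filter, reached 2-fold in any of the 4 comparisons. The granin Scg2, precursor of secretoneurin, was at 4548 with PBS and 5830 with KA, a difference of 0.36, and at 0.01 in KA+NAP minus NAP. Scg5, a chaperone of a prohormone convertase, was at -0.51 and -0.50.

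Of the 8 genes, Bdnf had the largest gap between the KA and KA+NAP arrays. Its intensity was 655 with PBS, 1412 with KA, 594 with KA+NAP and 642 with NAP. The KA array stood alone at 1412, and the other 3 lay between 594 and 655. The log2 difference was 1.10 in KA minus PBS and -0.11 in KA+NAP minus NAP. Between KA+NAP and KA it was -1.24, and 26 of the 9489 genes had a lower difference in that comparison. The KA difference with NAP less that without was -1.21, below which lay 100 genes. At least 2-fold lower in KA+NAP minus KA were 0.601% of all genes, and at least 2-fold lower in the difference of KA differences 1.75%. These comparisons share the KA array, so a departure of that 1 array would enter each. Bdnf was the only 1 of the 8 genes at 2-fold between the KA and KA+NAP arrays. None was 2-fold higher with KA+NAP, against 1.52% of all genes.

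The second Bdnf probe set, 1368678_at, was dim and below the filter. Its intensity was 26 with PBS, 85 with KA, 52 with KA+NAP and 68 with NAP. The KA array was again the highest and the KA+NAP array lower than it, but the NAP array lay above the KA+NAP array. Its log2 difference was 1.40 in KA minus PBS, -0.62 in KA+NAP minus KA and 1.12 in NAP minus PBS, where the brightest probe set gave -0.03. The call of 2-fold in KA+NAP minus KA thus held for the brightest probe set only. Dentate granule cells are a rich source of Bdnf, and the summed intensity of the 7 measured dentate granule cell markers was 4840 with PBS, 5463 with KA, 3807 with KA+NAP and 6338 with NAP. Of these, 4 passed the filter and none was at 0 on any array. The higher sum with KA than with PBS came mainly from Stxbp6, at 1529 with PBS and 2383 with KA. In KA minus PBS, the defining marker Prox1 was at -0.30, C1ql3 at -0.65 and Calb1 at 0.14. The median of the 4 past the filter was -0.08, with none at 2-fold. In KA+NAP minus KA their median was -0.34, again with none at 2-fold. In the difference of KA differences it was -0.73. There Stxbp6 was at -1.13, the only 1 of the 4 at 2-fold, beside 1.75% of all genes lower. On the KA array CA1 pyramidal cell markers also stood apart. The summed intensity of the 6 measured was 3483 with PBS, 1377 with KA, 3104 with KA+NAP and 2440 with NAP. In KA minus PBS, 5 of the 6 were at least 2-fold lower, beside 2.39% of all genes, and in KA+NAP minus KA 4 were at least 2-fold higher, beside 1.52%. The part of either list in the Bdnf values was not tested.

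**Figure D2:**
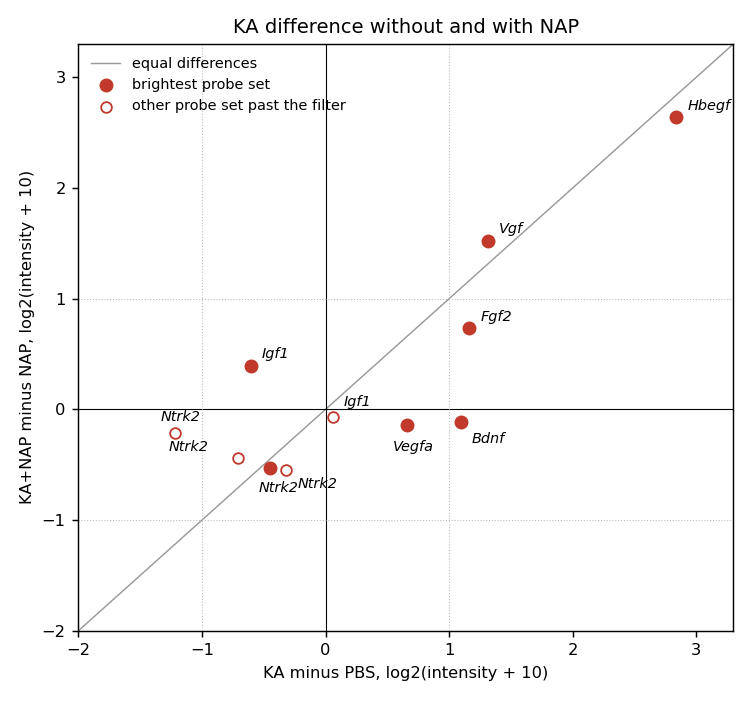
Log2 difference of KA minus PBS (horizontal) against KA+NAP minus NAP (vertical) for probe sets past the filter, in log2(intensity + 10); filled points are the brightest probe set of a gene, open points its other probe sets, dotted lines mark 2-fold and the grey line equal differences. Hbegf at 2.84 and 2.64 and Vgf at 1.32 and 1.52 lie near the grey line, and Bdnf at 1.10 and -0.11 lies below it.

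Ntrk2, which encodes TrkB, was lower on the arrays with KA. Its brightest probe set was at 1888 with PBS, 1377 with KA, 1569 with KA+NAP and 2271 with NAP. Both arrays with KA lay below both without. The log2 difference was -0.45 in KA minus PBS, -0.53 in KA+NAP minus NAP, 0.19 between KA+NAP and KA, and 0.27 in NAP minus PBS, none of them 2-fold. All 4 Ntrk2 probe sets past the filter had a difference below 0 in both KA comparisons. Their range was -1.22 to -0.32 in KA minus PBS and -0.55 to -0.22 in KA+NAP minus NAP.

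The lowest of these values came from 1368972_at, which read 1037 with PBS, 441 with KA, 611 with KA+NAP and 712 with NAP. It was the only Ntrk2 probe set past the filter to reach 2-fold in KA minus PBS, at -1.22, while its KA+NAP minus NAP was -0.22. Ntrk2 has full-length and truncated forms, and which form each probe set detects was not established here. TrkB is made by neurons and astrocytes. The summed intensity of 10 pan-neuronal markers was 37794 with PBS, 28438 with KA, 27757 with KA+NAP and 35776 with NAP. That of 9 general astrocyte markers was 37394, 27939, 29604 and 35007 in the same order. Both sums were lower on the KA arrays, all 19 of these markers passed the filter, and their part in the Ntrk2 values was not tested. In bulk tissue, fewer cells of a type and less RNA per cell cannot be told apart.

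**Figure D3:**
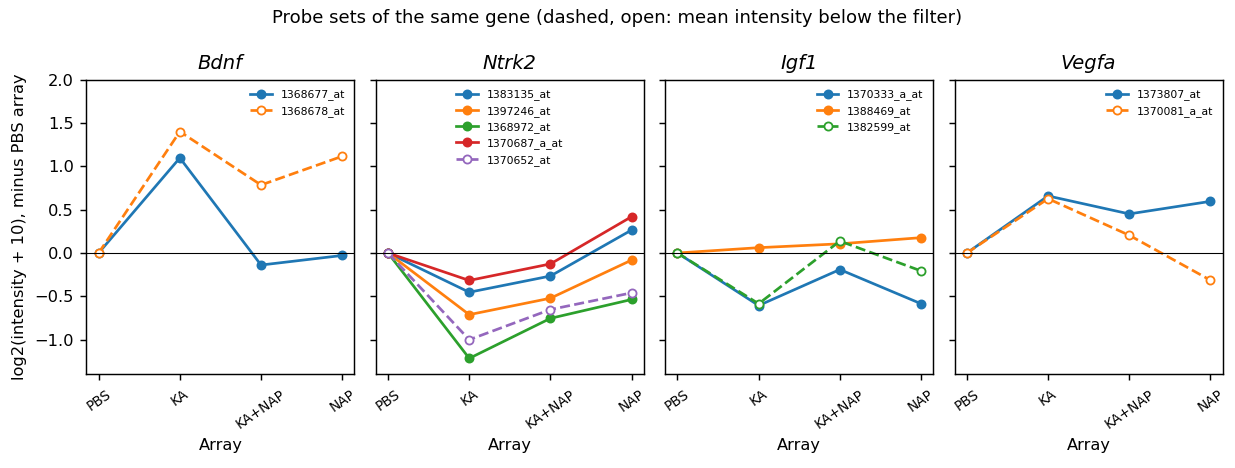
Log2(intensity + 10) relative to the PBS array for every probe set of Bdnf, Ntrk2, Igf1 and Vegfa on the 4 arrays; dashed lines with open points are probe sets below the filter. All 5 Ntrk2 probe sets dip on the KA array, both Bdnf probe sets peak there, and the Igf1 probe sets differ in direction.

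Among the other neurotrophin genes, the sorting receptor gene Sorcs3 also had its KA array alone on top. Ntf3 (neurotrophin 3) was at 316 with PBS, 208 with KA, 148 with KA+NAP and 403 with NAP, with log2 differences of -0.58 and -1.39 in the 2 KA comparisons. Ntf4 was at 10 or below on all arrays. The TrkC receptor gene Ntrk3 was at -0.76 and -0.42, and the sorting receptor gene Sort1, which binds proneurotrophins, at -0.70 and -0.48. Sorcs3, a relative of Sort1, was at 241 with PBS, 758 with KA, 189 with KA+NAP and 206 with NAP. The other 3 arrays lay between 189 and 241. Sorcs3 differed by 1.61 in KA minus PBS and -1.95 in KA+NAP minus KA, and its second probe set by 1.45 and -1.27. Ngfr, the shared neurotrophin receptor gene, was at 31 or below on every array. Of the genes for extracellular enzymes that act on proneurotrophins, Plat (tissue plasminogen activator) went from 367 with PBS to 850 with KA (1.19) and from 385 with NAP to 642 with KA+NAP (0.72). The metalloproteinase gene Mmp9 differed by 2.31 and 1.88, and Furin, an intracellular convertase, by -0.42 and 0.36. Mmp9 passed the filter through the arrays with KA.

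Fgf2 was dim without KA and brighter with it. Its 1 probe set read 48 with PBS, 120 with KA, 120 with KA+NAP and 68 with NAP. The 2 arrays with KA had the same intensity and lay above the 2 without, and the PBS and NAP arrays differed by 0.43 on the log2 scale. The log2 difference was 1.16 in KA minus PBS (2.24-fold) and 0.74 in KA+NAP minus NAP (1.67-fold), so that 2-fold was reached without NAP only. With the control arrays exchanged, an alternative chosen after the data were seen, KA minus NAP was 0.74 and KA+NAP minus PBS 1.16. Its mean intensity of 89 passed the filter through the arrays with KA. Astrocytes are a main source of Fgf2. The summed intensity of 9 reactive astrocyte genes was 7504 with PBS, 19474 with KA, 25845 with KA+NAP and 11913 with NAP, and their part in the Fgf2 values was not tested.

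Of the other 11 FGF ligands measured, 2 passed the filter. Fgf1 was at 40 with PBS and 93 with KA (1.04) and at 0.34 in KA+NAP minus NAP. Its mean intensity of 66.75 passed the filter through the arrays with KA. Its other probe sets, dim and below the filter, were at -0.29 and -0.20 in KA minus PBS. Fgf9, made by neurons, was at 1201 with PBS and 826 with KA (-0.53) and at -0.39 in KA+NAP minus NAP. The receptor genes Fgfr1 and Fgfr2 differed by 0.09 and 0.03 in KA minus PBS, and by 0.24 and 0.01 in KA+NAP minus NAP. A second Fgfr1 probe set past the filter was at 0.49 and 0.02 in these comparisons. Fgfr3, an astrocyte receptor, was at 0.00 and 0.63. Fgfrl1, a receptor without a kinase domain, was at 102 with PBS, 214 with KA, 307 with KA+NAP and 106 with NAP, reaching 2-fold in both comparisons. The syndecan genes Sdc4 (0.78 and 1.03) and Sdc3 (-1.08 and -0.42) had opposite signs in each comparison.

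Vegfa was lowest on the PBS array, and the other 3 arrays were near each other. The brightest probe set read 80 with PBS, 132 with KA, 113 with KA+NAP and 126 with NAP. The log2 difference was 0.66 in KA minus PBS, -0.14 in KA+NAP minus NAP, -0.21 between KA+NAP and KA, and 0.60 in NAP minus PBS. The second probe set, below the filter, read 36 with PBS, 61 with KA, 43 with KA+NAP and 27 with NAP. It was highest with KA like the first, but the NAP array was its lowest. Its log2 difference was 0.52 in KA+NAP minus NAP and -0.31 in NAP minus PBS, opposite in sign to the brightest probe set in both.

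By their brightest probe sets, the VEGF receptor genes went different ways. Kdr (VEGFR-2), the main signalling receptor, was at 78 with PBS, 256 with KA, 462 with KA+NAP and 122 with NAP, and both arrays with KA lay above both without. It differed by 1.60 and 1.84 in the 2 KA comparisons. Its co-receptor gene Nrp1 was at -0.48 and -0.44, and the decoy receptor gene Flt1 at 0.23 and -0.19. The summed intensity of 9 endothelial markers, a list that holds Kdr and Flt1, was 2601 with PBS, 2504 with KA, 3319 with KA+NAP and 3457 with NAP. Of the 9 hypoxia-regulated genes past the filter, 1 reached 2-fold in KA minus PBS, the glucose transporter gene Slc2a1 at 1.16. None did in KA+NAP minus NAP, where Slc2a1 was at 0.64. Among all genes, 4.91% and 5.66% were at least 2-fold higher in these comparisons.

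Igf1 gave no single pattern. The brightest probe set, 1370333_a_at, read 200 with PBS, 128 with KA, 174 with KA+NAP and 130 with NAP. The KA and NAP arrays were the low ones and the PBS array the highest. Its log2 difference was -0.61 in KA minus PBS, 0.39 in KA+NAP minus NAP, 0.42 between KA+NAP and KA, and -0.58 in NAP minus PBS, and the KA difference with NAP less that without lay exactly at the 2-fold rule. At least 2-fold higher in this difference of differences were 1.77% of all genes. The second probe set, 1388469_at, read 82, 86, 89 and 94 in the order PBS, KA, KA+NAP and NAP. Its differences were within -0.13 and 0.18 in every comparison, so the pattern of the brightest was not shared by it. The third, 1382599_at, was dim at 10 to 23 and below the filter. It had the signs of the brightest, at -0.58 in KA minus PBS and 0.34 in KA+NAP minus NAP.

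Igf1 in the injured brain is made largely by microglia, whose markers differed between arrays. The summed intensity of 11 microglia and macrophage markers was 4875 with PBS, 4257 with KA, 7740 with KA+NAP and 4938 with NAP. Ctss, a cathepsin gene, made up much of these sums, at 3777, 2102, 3394 and 3107 in the same order. In KA minus PBS, where the sum was lower, 6 of the 11 were at least 2-fold higher and none lower (median 1.14), beside 4.91% and 2.39% of all genes. In NAP minus PBS, 4 of the 11 were higher and none lower (median 0.75), beside 1.05% and 0.242%. The summed intensity of 5 resting microglia markers was 1783, 594, 932 and 1394 in that order of arrays, and no marker of either list was at 0. Their part in the Igf1 values was not tested. The receptor gene Igf1r was at -0.48 in KA minus PBS and 0.04 in KA+NAP minus NAP, and its second probe set at -0.56 and -0.08. Igfbp5, which encodes a binding protein, was at 156 with PBS, 60 with KA, 65 with KA+NAP and 192 with NAP. It was the only 1 of 5 binding protein genes past the filter to reach 2-fold, at -1.25 and -1.43. Igf2, a ligand made by meningeal cells, was highest with NAP at 528 against 157 with PBS (1.69). Of the meningeal and fibroblast markers, a list that holds Igf2, the summed intensity was 4886 on the NAP array and between 1679 and 2349 on the others, and their part in the Igf2 value was not tested.

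Gdnf was at 4 with PBS, 2 with KA, 3 with KA+NAP and 7 with NAP. All 4 intensities were below the pseudocount of 10, and no fold is given. Its receptor complex was better measured. Ret, the signalling receptor gene, was at 212 with PBS, 840 with KA, 726 with KA+NAP and 327 with NAP. Both arrays with KA lay above both without, with log2 differences of 1.94 and 1.13. The binding subunit gene Gfra1 was at 248, 351, 327 and 198 in the order PBS, KA, KA+NAP and NAP. It differed by 0.48 and 0.70, and its second probe set by 1.22 and 1.16.

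With NAP alone, none of the 8 genes stood 2-fold above or below PBS by its brightest probe set, against 1.05% of all genes higher and 0.242% lower. The largest differences were 0.60 for Vegfa, -0.58 for Igf1, -0.48 for Vgf and 0.43 for Fgf2. Bdnf was at -0.03 and Hbegf at 0.11. The central 95% of all genes lay between -0.53 and 0.70 in that comparison. By the brightest probe sets, Igf1 lay outside this range and the others inside. This depended on the probe set. The second Igf1 probe set was at 0.18, inside the range. The second Bdnf probe set, below the filter, was outside at 1.12, and the Ntrk2 probe set 1368972_at at -0.54.

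Of 152 further genes fixed as ligands, receptors, processing enzymes and co-regulated genes of these factors, 143 were measured and 93 passed the filter. In KA minus PBS, 14 of the 93 were at 2-fold or above and 4 below (Igfbp5, Sdc3, Nr4a3 and Nr4a2), that is 15.1% and 4.30%, beside 4.91% and 2.39% of all genes. In KA+NAP minus NAP, 11 were higher (11.8%) and 5 lower (5.38%), beside 5.66% and 2.41%. The 5 were Ntf3, Igfbp5, Igf2, Bmp6 and Nr4a3. In KA+NAP minus KA, 3 were higher (Dusp6, Nr4a2 and Ptn) and 1, Sorcs3, lower, beside 1.52% and 0.601% of all genes. In NAP minus PBS, 2 were higher, Igf2 and the ligand gene Bmp6, and none lower, beside 1.05% and 0.242%. Both calls held for the brightest probe set only. The second Bmp6 probe set, past the filter, was at 0.69 there and at -0.77 in KA+NAP minus NAP. The other Igf2 probe sets were dim and below the filter, at 0.06 or less. The median of the 93 was 0.00 in KA minus PBS and 0.07 in KA+NAP minus NAP, beside 0.02 and 0.03 for all genes. The lists were drawn up with earlier results of these arrays known. Of the 14, Sdc1, Fgf1 and Mmp9 passed the filter through the arrays with KA. On the PBS and NAP arrays Sdc1 was at 29 and 65, Fgf1 at 40 and 58, and Mmp9 at 39 and 36. The share higher with KA thus rests in part on the filter.

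**Figure D4:**
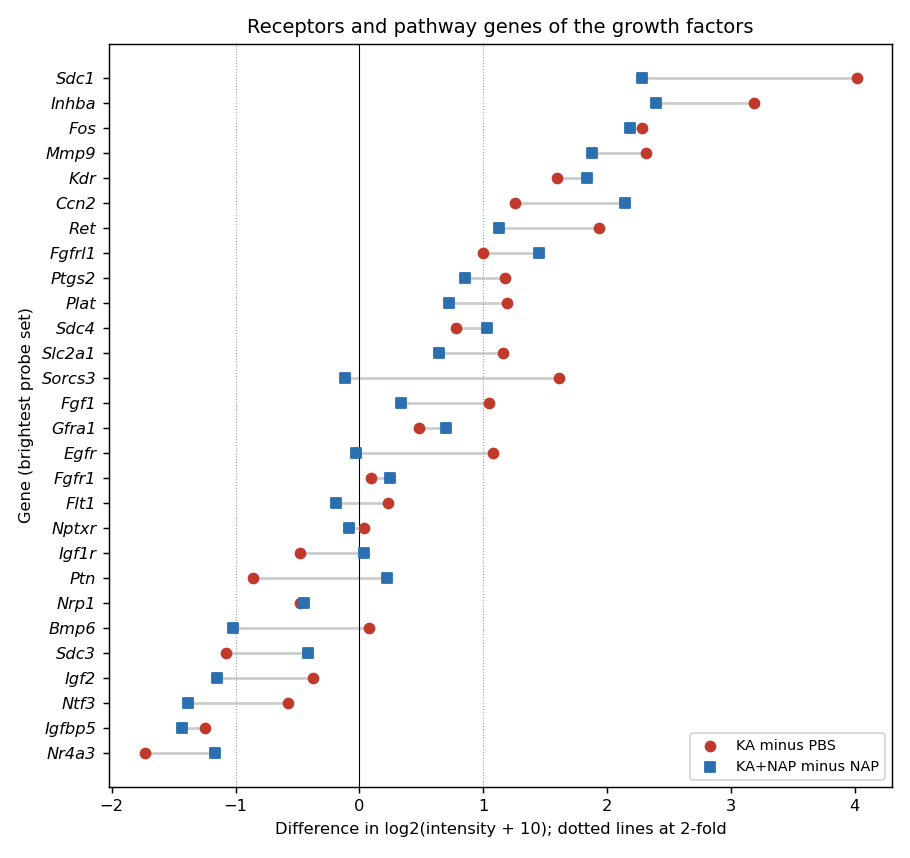
Log2 difference in KA minus PBS (red circles) and KA+NAP minus NAP (blue squares) for 28 receptors and pathway genes past the filter, each by its brightest probe set, in log2(intensity + 10); dotted lines mark 2-fold. Sdc1 at 4.02 and 2.28 is at the top, Nr4a3 at -1.74 and -1.17 at the bottom, and Sorcs3 at 1.61 and -0.12 has, with Sdc1, the widest gap between its points.

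Other secreted factors and activity-regulated genes lay on either side of 0. Inhba, the subunit gene of activin A, was at 160 with PBS, 1534 with KA, 767 with KA+NAP and 138 with NAP, with differences of 3.18 and 2.39 and a second probe set at 2.55 and 1.61. The matricellular factor gene Ccn2 differed by 1.26 and 2.14. Ptn (pleiotrophin) was at 2399 with PBS, 1320 with KA, 2824 with KA+NAP and 2416 with NAP, so the KA array was the low one, and KA+NAP minus KA was 1.09. Of 15 activity-regulated immediate early genes measured, 3 reached 2-fold above PBS with KA (Inhba, Fos at 2.29 and Ptgs2 at 1.18) and 2 lower (Nr4a3 at -1.74 and Nr4a2 at -1.12), beside 4.91% and 2.39% of all genes. In KA+NAP minus NAP, 4 were higher (Inhba, Fos at 2.19, Dusp6 at 1.51, and Fosb exactly at the 2-fold rule) and 1 lower (Nr4a3 at -1.17), beside 5.66% and 2.41%, and Ptgs2 was at 0.85. Dusp6, a phosphatase gene of the ERK pathway, was at -0.32 in KA minus PBS and at 1.63 between KA+NAP and KA.

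The genes closest in pattern over the 4 arrays were found by the Euclidean distance of log2(intensity + 10) after each gene's mean was removed, for genes past the filter with a range of 1 or more. Bdnf lay closest to Slc4a11 (distance 0.07), Rps6ka6 (0.16) and Ppl (0.24). Hbegf lay closest to Tfpi2 (0.14), Plau (0.18) and Atf3 (0.22). Vgf lay closest to Fam43b (0.23), Fbl (0.24) and Bag3 (0.24), and Fgf2 to Polr3g (0.06), Cnn3 (0.07) and Snrpa1 (0.08). With 4 arrays and 9489 genes, close neighbours are to be found for many patterns.

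The arrays were comparable in overall level, with median intensities of 58 to 65 over all probe sets. Beta-actin control probe sets at the 3′ end were 7.92 (NAP) to 15.5 (KA+NAP) times as bright as those at the 5′ end, and those of GAPDH 1.31 to 1.56 times. The tissue label was set against its markers. All 10 measured CA3 and excitatory neuron markers passed the filter. Their summed intensity was 9098 with PBS, 5931 with KA, 5360 with KA+NAP and 7996 with NAP. CA1 and dentate granule cell markers were present too, with sums of 1377 to 3483 and 3807 to 6338. The haemoglobin gene Hbb was at 5 with PBS, 186 with KA, 1549 with KA+NAP and 1430 with NAP.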

How the data were processed

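RNA of the CA3 area was measured on 4 Affymetrix rat arrays, 1 per group. Per the labels' protocols, biotin-labelled cRNA was made from 500 ng of total RNA by the 2-cycle protocol, so that signal leans to transcripts' 3′ ends. Per the submitters' processing notes, the deposited intensity values were computed with MAS5; its version and settings were not among the labels used here. The arrays shared one level (a mean of 250 after dropping the outer 2% on either side), so the authors had scaled them. The number of arrays, not depth, limits precision.

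Of 31099 probe sets, 57 were controls, 20826 had 1 symbol in the platform annotation, 436 had several and 9780 were not listed there. Entrez identifiers updated the symbols through the GRCr8 gene table for 20758. A gene took its brightest probe set, and the filter was a mean intensity above 62.75. Differences are of log2(intensity + 10), where the deposited values were at or below 10 in 20.7% of cases. No model was fitted; one of additive KA and NAP effects, whose residual is the difference of KA differences, was left out. A difference of at least 2-fold is a rule of size, with no test. The calculation was tested on simulated data with known folds. Alternatives were other pseudocounts, array scalings, probe set rules and filters. All 9 genes are named, the 8 measured by their brightest probe set with others for agreement, as are list genes at 2-fold (at most 4 per list by range), direct receptors, and the 3 nearest patterns; a few other list genes were named after their values were seen. Members and lists were chosen with earlier results of these data known. Python 3.11.15, numpy 2.4.6 and pandas 2.3.3 were used.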

Additional observations from a re-analysis of the deposited data

Results flagged for a closer look

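For 3 genes the KA difference had opposite signs without and with NAP in a probe set past the filter. Each sign rests on 1 array per group, and the difference between them was not tested. Bdnf (1368677_at) was at 1.10 in KA minus PBS and -0.11 in KA+NAP minus NAP. Igf1 was at -0.61 and 0.39 by 1370333_a_at, and at 0.061 and -0.071 by 1388469_at, where the signs are the other way round and both values are near 0. Vegfa (1373807_at) was at 0.66 and -0.14. For Bdnf the dimmer probe set had the same signs as the brightest, at 1.40 and -0.33. For Vegfa the dimmer probe set was above 0 in both, at 0.63 and 0.52.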

How the results depend on the processing

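The number of the 8 genes at 2-fold in either direction was 3 to 4 in KA minus PBS and 2 to 3 in KA+NAP minus NAP under every alternative, among them exchanged control arrays (chosen after the data were seen), against 4 and 2 as reported. With a pseudocount of 1, the 3 in KA+NAP minus NAP included Gdnf as a decrease, at -1, from intensities of 7 or less. In KA+NAP minus KA the count of 1 became 0 with the mean over probe sets and with the second brightest probe set, where Bdnf was at -0.93 and -0.62. In NAP minus PBS the count of 0 became 1 with the second brightest probe set (Bdnf at 1.12). For the difference of KA differences, the count of 2 became 1 with a pseudocount of 32, median-centred arrays, quantile normalization, the mean over probe sets and the second brightest probe set, each time through Igf1, which reversed to -0.13 under the last. Fgf2 in KA minus PBS was at 0.93 with a pseudocount of 32. Over the 8 genes and these alternatives, 8 values of a gene went below 2-fold, 3 went above it, 13 under 2-fold changed sign, and 1 at 2-fold reversed. The share of all genes at 2-fold in either direction was 2.12% in KA+NAP minus KA, 3.97% with no filter and 1.04% with the filter at the 75th percentile. In NAP minus PBS it was 3.22% with no filter and 0.780% with that filter. Median-centring shifted the median of all genes by at most -0.079. No paired fit was made, since each group had 1 array. Signal over background could not be judged without detection calls, which limits Gdnf, Fgf2, Vegfa and the dim probe sets most.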
